A study of Mus musculus with 2 samples.

Results

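This report describes 10 genes of iron storage, iron transport and heme breakdown in whole omentum, taken by gene symbol from a table of 24346 genes. They are the ferritin chains Ftl1 and Fth1, transferrin Trf and its receptor Tfrc, the iron exporter Slc40a1, the iron transporters Slc11a1 and Slc11a2, heme oxygenase Hmox1, ceruloplasmin Cp and the metalloreductase Steap4. All 10 symbols were found in both libraries and all 10 passed the expression minimum, which was a mean FPKM of at least 1. FPKM counts fragments per kilobase of transcript, scaled to a fragment total for the library, so levels of different genes can be compared within a library.

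The omentum is a fatty fold of the peritoneum in which lymphocytes, macrophages and stromal cells gather in milky spots. To learn how lymphocytes are drawn to milky spots, RNA-seq was performed on entire omenta of WT mice and of Postn-DTR mice, both given diphtheria toxin (DT) and both taken 5 days later. Postn-DTR mice carry a diphtheria toxin receptor cassette in the first coding exon of 1 Postn copy, on a C57BL/6 background, so that cells using the Postn promoter are killed by DT. That promoter is also active in cells outside the omentum, and neither untreated mice, the age of the mice nor the number of mice per library was given in the sources used here. Each genotype had 1 library, so the spread between replicates is unknown, nothing was tested and each difference below lacks a check by replicates. Total FPKM came to 542190 (WT) and 671882 (Postn-DTR), and Postn itself was at 58.3 and 16.2. The denominators of FPKM were estimated at about 23200000 and 23994700 fragments. Whole tissue does not show whether fewer cells of a type or less RNA per cell lies behind a lower value, and the same holds for higher values.

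Cells take up iron bound to transferrin through the transferrin receptor, or as free ions through transporters of the membrane, and store what they do not use inside ferritin, a shell built from heavy and light chains. Ferroportin, the product of Slc40a1, is the known exporter of iron from cells, and ceruloplasmin oxidizes the iron that leaves so that transferrin can bind it. Macrophages take in much of the body's heme iron by clearing old erythrocytes, and heme oxygenase 1 opens the heme ring and frees the iron. In adipose tissue iron is handled by adipocytes and by resident macrophages alike.

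Several of these messages are governed through a stem and loop called the iron-responsive element (IRE), which binds iron regulatory proteins when iron is scarce. In the 5′ UTR of the ferritin messages the IRE limits translation, so their mRNA level does not show the amount of ferritin protein. In the 3′ UTR of Tfrc the IREs protect the mRNA from decay. The elements are shown because they are a known sequence feature that ferritin and Tfrc share. They were found in GENCODE M21 transcripts with the pattern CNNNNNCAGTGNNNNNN, in which the last loop base was not G and the 5 bases on each side of the loop had to pair. The capitals mark the bulged C and the 6 bases of the loop.
Ftl1, 5′ UTR, chr7:45459780-45459806, minus strand: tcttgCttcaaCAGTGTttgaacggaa
Fth1, 5′ UTR, chr19:9982733-9982759, plus strand: tcctgCttcaaCAGTGCttgaacggaa
Tfrc, 3′ UTR, chr16:32631220-32631246, plus strand: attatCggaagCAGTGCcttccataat
Tfrc, 3′ UTR, chr16:32631599-32631625, plus strand: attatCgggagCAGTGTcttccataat
Tfrc, 3′ UTR, chr16:32631664-32631690, plus strand: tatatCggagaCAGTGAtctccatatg
Tfrc, 3′ UTR, chr16:32631711-32631737, plus strand: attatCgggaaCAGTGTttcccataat

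Positions are on GRCm38 and each element of 27 bases lies within 1 exon. The elements of Fth1 and Ftl1 were identical at 25 of 27 bases. Among the Tfrc elements that the pattern found, this number went from 17 to 25. Elements with an unpaired base in the stem would be missed. Of 6 members searched (Ftl1, Fth1, Tfrc, Slc11a1, Cp and Steap4) 3 held the pattern in their reference transcript, and 222 of 21877 coding genes (1.01%) held it in any transcript. Those 3 were already known to carry IREs, so their matches were fixed in advance and are no independent result. The share over coding genes counts any transcript, so it is not a like measure. Slc40a1 and an isoform of Slc11a2 are known to carry an IRE too, and the elements of single genes were read for those 6 members alone.

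At least 2-fold higher in Postn-DTR were 3 of the 10 members, namely Hmox1, Fth1 and Slc11a1, against 3.88% of the 13127 genes compared. None (0 of 10) was at least 2-fold lower, against 3.12% of all genes. A gene was counted when its change, the log2(FPKM + 1) of Postn-DTR less that of WT, reached 1 in size, and 2-fold below refers to this change. Because of the added 1, Aco1, Slc46a1, Lipe and Cd3d, among the pathway and marker genes read below, stayed under it with FPKM ratios (Postn-DTR over WT) of 0.496, 0.488, 0.499 and 0.473. Above 0 by any amount were 8 members, against 51.9% of all genes, and Tfrc and Trf were below. The median change of the members was 0.34, beside 0.02 over all genes, and single values went from -0.69 for Tfrc to 2.16 for Hmox1. With the libraries brought to equal total FPKM, the median of all genes moved to -0.25. Hmox1 alone stayed at least 2-fold higher, against 2.35% of all genes. Higher genes then made up 30.5% of all changed genes, against 55.4% as deposited.

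**Figure D1:**
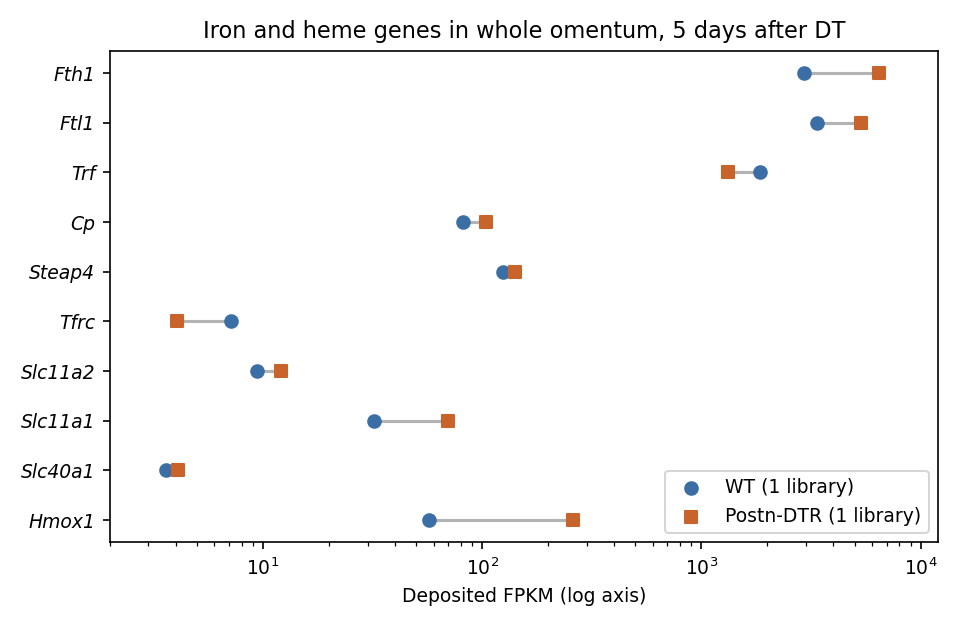
Deposited FPKM of the 10 members on a log axis, with a circle for the WT library and a square for the Postn-DTR library (1 library each, so there are no error bars). The ferritin chains lie at 2926 or higher in both libraries, Hmox1 has the widest gap (57.1 and 259.1), and Tfrc and Trf are the members with the square on the left.

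Ferritin was among the most abundant messages of the tissue. Fth1, the heavy chain that carries the ferroxidase centre, stood at an FPKM of 2926 (WT) and 6462 (Postn-DTR). Ftl1, the light chain that helps the iron core form, was at 3367 and 5314. Both were higher in Postn-DTR, and the heavy chain more so. Fth1 was 2.21-fold higher, with a change of 1.14, and moved from place 11 to place 4 among all genes ordered by FPKM. Ftl1 was 1.58-fold higher, with a change of 0.66, and stood at place 7 in WT and 6 in Postn-DTR. The chains together made up 1.16% of all FPKM in WT and 1.75% in Postn-DTR.

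The order of the 2 chains was not the same in both libraries. The FPKM ratio of heavy to light chain was 0.869 in WT and 1.22 in Postn-DTR. A ratio taken within a library does not depend on how the libraries are scaled to each other. It does depend on how reads of near-identical copies were placed. The annotation holds Ftl1-ps1 on chromosome 13 with 99.6% identity to the Ftl1 transcript over 910 bases, Ftl2-ps on chromosome 4 with 98.7% and Ftl1-ps2 on chromosome 10 with 97.8%. The Fth1 copies Fth-ps2 and Fth-ps3 were less alike, with 86.7% and 90.5%. None of these 5 copies is listed in the tables, so the value of Ftl1 is uncertain. The copies were picked by name, and ferritin copies annotated under other names were not looked for. The value of Fth1 may thus be uncertain too.

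Ncoa4, which carries ferritin to the lysosome for breakdown, had 78.5 (WT) and 208.7 (Postn-DTR), with a change of 1.40. It belongs to a list of 6 ferritin partners and iron chaperones, of which 5 were compared and only Ncoa4 passed 2-fold. Of all genes 3.88% were at least 2-fold higher. The chaperones that load ferritin with iron did not: Pcbp1 was at 116.2 and 115.1, and Pcbp2 at 94.7 and 119.7. Pcbp4, a relative of them, was at 12.1 and 13.5. The mitochondrial ferritin gene Ftmt was listed at 0 in both libraries. The median of the 5 genes was 0.15, and it turned to -0.13 at equal totals.

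Slc11a1 encodes NRAMP1, which moves iron and manganese out of the phagosomes of macrophages. Its FPKM was 32.01 (WT) and 70.2 (Postn-DTR), 2.19-fold higher with a change of 1.11. Its relative Slc11a2 encodes DMT1, which moves ferrous iron across the cell surface and out of endosomes in many cell types. It was at 9.35 and 12.05, a change of 0.33, so the ratio of Slc11a1 to Slc11a2 was 3.42 in WT and 5.83 in Postn-DTR. C57BL/6 mice are known to carry an Slc11a1 allele with little function, so the transcript does not stand for transport activity.

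The stretches just upstream of the start sites were read for the 6 members with a RefSeq promoter entry (GRCm38.p6). Slc40a1, Slc11a2, Hmox1 and Trf had none. The 160 bases before the start site are given for Fth1, Ftl1 and Slc11a1, and of 2 Fth1 windows the printed one is that which held a motif. Capitals mark ATTGG, the reverse complement of a CCAAT box, in the ferritin genes and GAGGAA, the core of a PU.1 site, in Slc11a1. PU.1 is a known factor of myeloid cells.
Fth1, chr19:9982486-9982645, plus strand: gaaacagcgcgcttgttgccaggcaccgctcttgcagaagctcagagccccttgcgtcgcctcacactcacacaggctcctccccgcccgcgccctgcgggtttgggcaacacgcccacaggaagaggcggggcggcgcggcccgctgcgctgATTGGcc
Ftl1, chr7:45459887-45460046, minus strand: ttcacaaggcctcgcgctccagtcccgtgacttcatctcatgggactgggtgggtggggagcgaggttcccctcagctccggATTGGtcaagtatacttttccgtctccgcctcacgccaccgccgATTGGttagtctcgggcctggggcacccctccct
Slc11a1, chr1:74375043-74375202, plus strand: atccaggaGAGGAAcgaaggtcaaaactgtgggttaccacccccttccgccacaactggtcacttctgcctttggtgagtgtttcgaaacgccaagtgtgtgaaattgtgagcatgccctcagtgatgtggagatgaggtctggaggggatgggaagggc

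Ftl1 had CCAAT on the other strand from -78 to -74 and from -34 to -30 relative to its start, and Fth1 from -7 to -3. On either strand 33.8% of all 32851 windows of 250 bases held CCAAT, and the windows of Tfrc and Cp held it too. Slc11a1 had GAGGAA from -152 to -147, and 23.3% of all windows held it. The core of the antioxidant response element, TGACNNNGC, was in none of the 9 windows of the 6 members, and 10.2% of all windows held it. The AP-1 site TGACTCA (4.46% of windows) and the E-box CACGTG (6.02%) were in none of them either. The motifs were picked after the values were seen, and a match of letters is a description of these stretches only. Sequence beyond the 250 bases was not searched for them and Hmox1 had no window, so absence holds for these windows alone.

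Hmox1 showed the widest difference of the members. It had 57.1 (WT) and 259.1 (Postn-DTR), 4.54-fold higher with a change of 2.16. Only 0.861% of all genes compared had a change as high. Its place by level moved from 1490 to 342 of 24346 genes. The constitutive isoform Hmox2, named after its values were seen, was at 44.6 and 52.7, a change of 0.24. At equal totals the Hmox2 change turned to -0.07, beside a median of -0.25 over all genes. The heme oxygenase genes were thus at similar levels in WT and far apart in Postn-DTR.

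Markers of other cells were read in the same libraries. Shares over all genes, to be set beside each list count below, were 51.9% above 0, 3.88% at least 2-fold higher and 3.12% at least 2-fold lower. Of 8 macrophage and monocyte markers 7 were above 0 in change and 4 at least 2-fold higher, and 1, Ccr2 (named after its values were seen), was at least 2-fold lower at 39.6 and 16.4. Single changes went from -1.23 to 2.74, and the summed FPKM was 2942 in WT and 4862 in Postn-DTR. The most abundant of them were Lyz2 (2459 and 3563), Csf1r (158.3 and 219.1) and Cd68 (113.8 and 369.4). Lyz2 made up most of that sum and was 1.45-fold higher. Other markers, named after their values were seen, were Adgre1 at 3.35-fold, Itgam at 5.38-fold, Cd14 at 6.84-fold and Mrc1 at 1.48-fold higher. At equal totals the counts were again 4 and 1, against 2.35% and 5.36% of all genes, with a median change of 0.82. The part of macrophage content in these differences was not tested. Of 6 neutrophil markers 5 were compared, and Ly6g had no entry. Of the 5, 1 was at least 2-fold higher (Csf3r, 6.87 and 15.9) and 2, also named after their values were seen, were at least 2-fold lower (Mpo, 3.84 and 0.726, and Elane, 5.86 and 1.85). At equal totals 0 were higher and 2 lower, against 2.35% and 5.36% of all genes. The sum of the 5 markers was 342.8 and 606.4, mostly S100a8 (169.7 and 338.6) and S100a9.

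**Figure D2:**
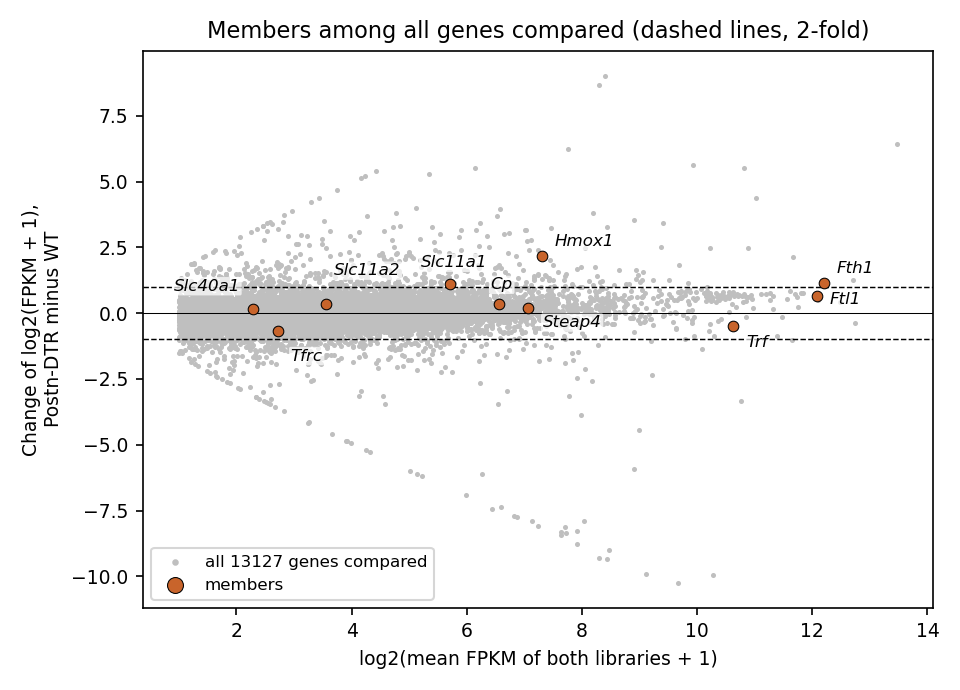
Difference in log2(FPKM + 1) between Postn-DTR and WT (above 0: higher in Postn-DTR) against log2 of the mean FPKM of both libraries plus 1, for all 13127 genes compared (grey) and the 10 members (orange). Hmox1, Fth1 and Slc11a1 lie above the upper dashed line, which marks 2-fold, and no member lies under the lower line.

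The transcripts of transferrin and its receptor pointed the other way. Tfrc, the receptor that brings transferrin into cells, had an FPKM of 7.18 (WT) and 4.06 (Postn-DTR), and Trf, the plasma carrier of iron, 1847 and 1325. Both were lower in Postn-DTR without reaching 2-fold. Tfrc was 1.77-fold lower with a change of -0.69, and 6.60% of all genes had a change as low. Its difference was above the counting error, since about 782 reads in WT and 457 in Postn-DTR were estimated, which gave a 95% exact interval of 1.57 to 1.99 for the fold. For Trf the fold was 1.39 and the change -0.48. Trf was the third most abundant member in both libraries, at place 24 of all genes in WT and 87 in Postn-DTR. Both stayed lower under all 6 scalings and pseudocounts tried, between -0.95 and -0.43 for Tfrc and between -0.81 and -0.48 for Trf.

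Tfrc is known to be high in dividing cells, and lymphocyte markers were lower in the same library. All 6 T cell markers were below 0 in change, 4 of them by at least 2-fold (6 at equal totals). Over all genes 3.12% were lower by at least 2-fold (5.36% at equal totals). The T cell markers had a summed FPKM of 79.2 and 35.0, led by Lck (20.3 and 8.37) and Cd3g (18.7 and 10.5). All 5 B cell markers were below 0, 1 of them by at least 2-fold (Ms4a1, named after its values were seen), with a sum of 450.8 and 328.9. The part of lymphocyte content in the Tfrc value was not tested.

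Plasma transferrin comes mainly from the liver, and hepatocyte markers were therefore read beside it. The 6 hepatocyte markers had a summed FPKM of 3.30 (WT) and 2.24 (Postn-DTR), with Alb at 2.17 and 1.22, Ahsg at 0.997 and 0.601, and Apoh and Fgb listed at 0 in both. The part of liver RNA in the Trf value was not tested. Of 6 adipocyte markers none was past 2-fold (2 were lower by 2-fold at equal totals), 4 were below 0 in change, and single values went from -0.997 to 0.42. Fabp4 was at 4879 and 6519, Adipoq at 955.2 and 635.9 and Cidec at 512.8 and 591.5. The part of adipocyte content in the Trf value was not tested.

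Ceruloplasmin and Steap4, which are also made in fat, were not past 2-fold. Cp, a copper enzyme that oxidizes iron, had 81.9 (WT) and 104.6 (Postn-DTR), a change of 0.35. Steap4, which reduces iron and copper and was first known as an adipocyte protein induced by TNF, was at 124.6 and 141.4, a change of 0.18. Within a library Trf was 22.5 times as abundant as Cp in WT and 12.7 times in Postn-DTR. The sign of the Steap4 change was not stable, as it turned to -0.13 at equal totals and to -0.15 when acinar genes were also left out. Relative to the median of all genes, Steap4 stood 0.13 and 0.12 above it in these settings, and 0.16 as deposited. Cp stayed above 0 under all 6 alternatives, but came down to 0.019. Cp overlaps Hps3 on the other strand, and Trf overlaps the annotated gene Gm20425 on its own strand, so reads of these pairs may be shared.

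Slc40a1 was the least abundant member in WT and close to the lowest in Postn-DTR. Its FPKM was 3.63 and 4.10, a change of 0.14. About 268 and 312 reads were estimated, and the 95% exact interval of the Postn-DTR to WT fold, 0.953 to 1.33, included 1. The change turned to -0.10 at equal totals and to -0.12 when acinar genes were also left out. Relative to the median of all genes, Slc40a1 stood 0.15 above it in both settings, and 0.12 as deposited. For Slc11a2 the interval was 1.16 to 1.43. These intervals cover counting error alone and rest on annotated transcript lengths. They say nothing of the spread between mice.

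**Figure D3:**
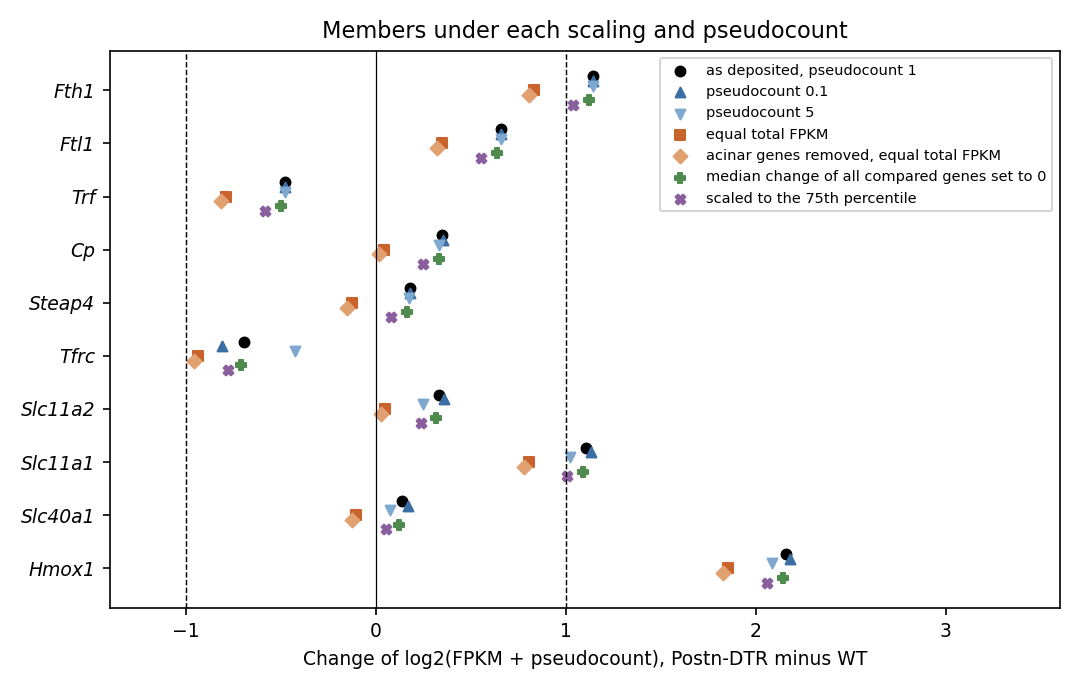
Difference in log2(FPKM + pseudocount) between Postn-DTR and WT (right: higher in Postn-DTR) of each member as deposited (black circle) and under 6 other pseudocounts or scalings. Hmox1 lies past 2-fold (right dashed line) in all of them, Fth1 and Slc11a1 leave it at equal totals (squares and diamonds), Tfrc and Trf stay under 0, and Slc40a1 and Steap4 cross 0.

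At equal totals Fth1 had a change of 0.83 and Slc11a1 of 0.80, both under 2-fold. Relative to the median of all genes in that setting, they stood 1.08 and 1.06 above it, and Hmox1 2.105. The genes whose FPKM pair was nearest to a member, on the log2(FPKM + 1) scale over the 2 libraries, were Zfp36 (68.3 and 278.0) and Itgam (46.8 and 251.9) for Hmox1. For Slc11a1 they were Arl4d (33.4 and 71.2) and Hdc (31.0 and 68.0), and for Fth1 Eef1a1 (3650 and 5152) and Rps29 (2739 and 4624). With 2 libraries a pattern is 1 difference, so nearness describes the levels and nothing further.

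Uptake genes outside the transferrin route were examined next. Of 11 other iron uptake and reductase genes 9 were compared, and 3 were at least 2-fold higher, against 3.88% of all genes. The median change of the 9 was 0.35. Slc39a8 and Slc39a14 encode ZIP8 and ZIP14, which carry zinc, manganese and iron that is not bound to transferrin. Slc39a8 had 3.98 (WT) and 46.6 (Postn-DTR), 11.7-fold higher. Slc39a14 was at 6.88 and 37.3, 5.42-fold higher. Steap1, a relative of Steap4, was at 2.03 and 5.56, and its change of 1.11 came down to 0.86 at equal totals. Steap3, the reductase of the transferrin endosome, was at 26.6 and 16.5, a change of -0.66 beside -0.69 for Tfrc. Of the others, the mitochondrial importer Slc25a28 was at 30.4 and 47.1 and the lysosomal channel gene Mcoln1 at 21.6 and 27.9.

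**Figure D4:**
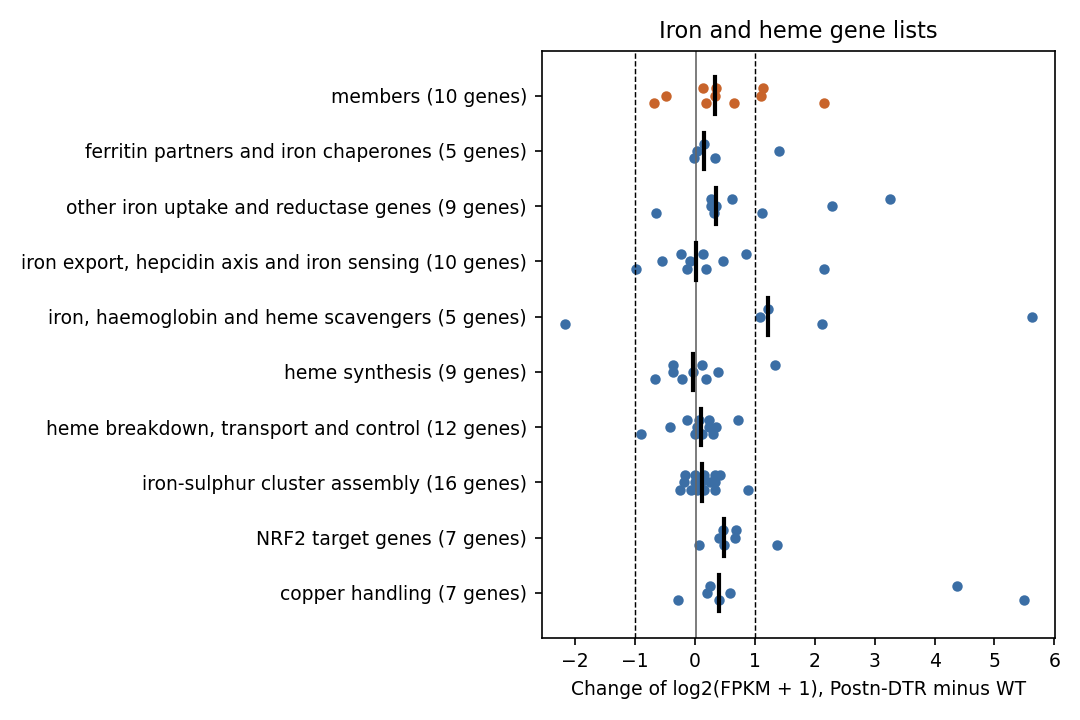
Difference in log2(FPKM + 1) between Postn-DTR and WT for the members (orange) and for the compared genes of 9 other iron and heme lists (blue), with black bars at the medians, a grey line at the median of all genes and dashed lines at 2-fold. Scavengers have the highest median (1.22), and the points of iron-sulphur cluster assembly all lie between the dashed lines.

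Secreted scavengers and their receptors had the highest median of the 9 lists. Of 6 listed, 5 were compared, 4 of them at least 2-fold higher and 1 at least 2-fold lower, against 3.88% and 3.12% of all genes. The median of the 5 was 1.22. Lcn2, which binds the iron carriers of bacteria, had 37.7 (WT) and 1908 (Postn-DTR). Hp, haptoglobin, which binds free haemoglobin, was at 1205 and 5256. Cd163, the macrophage receptor for the complex of haptoglobin and haemoglobin, was at 29.2 and 69.5. Lrp1, which takes up heme bound to hemopexin among many other ligands, was at 87.9 and 186.8. Ltf, lactoferrin of neutrophil granules, was lower, at 12.4 and 1.98. Hemopexin itself, Hpx, was at 0.269 and 0.649, under the expression minimum. At equal totals Cd163 (0.92) and Lrp1 (0.77) were no longer past 2-fold.

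Among the 3 haemoglobin genes listed, Hba-a1 and Hbb-bs were higher in the same library and Hba-a2 was near 0 in both (0.0190 and 0.0190). Hba-a1 had 269.8 (WT) and 790.7 (Postn-DTR), and Hbb-bs at 0.00240 and 33.9, both with near-identical copies that make their values uncertain. The other 5 erythroid markers were near 0, with FPKM values up to 0.148 and Epb42 listed at 0 in both. Alas2, the erythroid enzyme that starts heme synthesis, was at 4.88 and 13.8. The part of blood in the values of Hmox1, Cd163 and Hp was not tested.

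Genes of heme synthesis did not share a direction. Of 9 compared only Alas2 passed 2-fold, 4 were above 0 and 5 below, and the median was -0.04. Alas1, the housekeeping form of that enzyme, was at 69.2 and 90.8, Urod at 45.7 and 49.8, and Fech, which inserts iron into heme, at 30.2 and 34.6. Of 12 further genes of heme breakdown, transport and control none reached 2-fold on the log2(FPKM + 1) scale, and Slc46a1 passed it as an FPKM ratio. Blvrb and Blvra encode the reductases that follow heme oxygenase in bilirubin formation, and Blvrb was at 78.6 and 99.96. Slc48a1, which moves heme out of the lysosome, was at 78.0 and 84.9, and Pgrmc1, a heme binding protein, at 72.4 and 65.8. Slc46a1, a heme and folate transporter named after its values were seen, was at 10.03 and 4.89. Its change of -0.90 reached -1.02 with a pseudocount of 0.1 and -1.16 at equal totals. The median of the 12 was 0.09 and turned to -0.18 at equal totals.

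Hmox1 and both ferritin genes are known targets of NRF2, a factor of the oxidative stress response. All 7 compared genes of a list of 8 other NRF2 targets were above 0 in change, against 51.9% of all genes. Their median was 0.49, and against 3.88% of all genes 1 alone was at least 2-fold higher. This was Gsr, glutathione reductase, at 19.7 and 52.6. Txnrd1 was at 22.4 and 36.2, Srxn1 at 14.3 and 23.5 and Gclm at 11.3 and 15.95. At equal totals 6 of the 7 were above 0, with a median of 0.20 beside -0.25 over all genes. Whether NRF2 had a part in the Hmox1 and ferritin values was not tested.

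Genes of iron export, iron sensing and the hepcidin axis went both ways. Of 13 genes 10 were compared, 5 above 0 and 5 below, with a median of 0.02, which was -0.24 at equal totals. Aco1, an iron regulatory protein when it lacks its iron-sulphur cluster, was at 50.6 and 25.1, a change of -0.98 that passed 2-fold at equal totals (-1.28) and in 4 other settings. Fbxl5, which marks iron regulatory proteins for breakdown when iron is plentiful, was at 26.7 and 49.0, a change of 0.85. Hfe was at 45.5 and 41.2. Hamp, which encodes hepcidin, the hormone that lowers ferroportin, was listed at 0 for WT and had 3.45 for Postn-DTR, while its near-identical neighbour Hamp2, given for that reason, was at 4.75 and 3.88. Reads of the pair may be shared, so the Hamp value is uncertain. Hamp was the gene of this list counted as at least 2-fold higher.

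Of 16 genes of iron-sulphur cluster assembly, which uses iron inside mitochondria, none passed 2-fold. Their changes went from -0.24 to 0.88 with a median of 0.12. The scaffold gene Iscu had the highest, at 118.4 and 218.6, while Hspa9 was at 97.6 and 123.3 and Isca1 at 53.6 and 68.2. Of 8 copper genes, listed because ceruloplasmin and the STEAP reductases also handle copper, 7 were compared. Against 3.88% of all genes, 2 of them were at least 2-fold higher. These were the metallothioneins, which bind zinc and copper. Mt1 was at 190.2 and 3963, and Mt2 at 77.4 and 3543. The copper chaperones Atox1 (290.5 and 347.2) and Ccs (28.5 and 32.7) and the transporter Slc31a2 (24.0 and 36.3) were not past 2-fold.

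Over all 9 lists, 13 of 80 compared genes were at least 2-fold higher and 1 was at least 2-fold lower, with a median of 0.23, against 3.88% and 3.12% of all genes. At equal totals 10 were higher and 3 lower (Ltf, Aco1 and Slc46a1), with a median of -0.07, against 2.35% and 5.36% of all genes. The remaining cell type lists were read for the whole tissue. The 10 pancreatic acinar markers, all at least 2-fold lower, had summed FPKM of 9013 (WT) and 17.7 (Postn-DTR), so the libraries differed in pancreatic RNA. Sums of the fibroblast (3015 and 2954), mesothelial (467.6 and 473.7) and endothelial markers (201.3 and 183.3) were closer. Dcn (1875 and 2152) made up most of the fibroblast sum. At least 2-fold lower were 1 of 6 fibroblast markers (Dpt, 236.9 and 67.3) and 1 of 5 mesothelial markers (Lrrn4, 62.7 and 29.2). Both were named after their values were seen, and 3.12% of all genes were at least 2-fold lower. None of the 4 endothelial markers was past 2-fold.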

How the data were processed

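RNA was measured in 1 WT and 1 Postn-DTR library of whole omentum. RNA preparation used miRNeasy reagents and stranded TruSeq mRNA libraries, per the labels. The authors deposited FPKM, with 1 value per gene symbol. The submitters' processing notes name TopHat2 2.1.1, Bowtie2 2.2.8, SAMtools 0.1.18, Cuffdiff 2.2.1 and mm10. The annotation and the handling of strand and of multiply mapped reads were not given in the sources used here.

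Groups came from the genotype label. The comparison took genes averaging 1 FPKM or more, by log2(FPKM + 1), which understates changes of low genes. Folds are FPKM ratios without a pseudocount. No test was run. The FPKM denominators came from steps of low FPKM, and whether they equal the mapped fragments of each library is not known. Of 723 genes under an FPKM of 0.1 in both libraries, 174 shared 0.967 as their ratio (Postn-DTR over WT), and fragments were estimated from 3103 genes with 1 annotated transcript. With these, 68.9% of low values in WT and 65.6% in Postn-DTR lay within 0.05 of a whole read, a span that holds 10% of all possible values, so read numbers are approximate. Intervals are 95% exact binomial (Clopper-Pearson). Positions and transcripts came from GENCODE M21 (GRCm38). The scripts were tested on simulated data and run with Python 3.11.15, pandas 2.3.3 and scipy 1.17.1. The members and lists were chosen with earlier results of these data known. Named genes were the members, list genes past 2-fold, otherwise up to 3 per list with the highest mean FPKM, and up to 3 per marker list.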

Additional observations from a re-analysis of the deposited data

How the results depend on the processing

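No replicate exists, so no result could be recomputed without a library, and no paired analysis was possible because each genotype had 1 library. The number of members at least 2-fold higher, 3, fell to 1 at equal totals, to 1 with the acinar genes also removed, and to 1 at 3-fold. Over all genes the shares were 2.35%, 2.29% and 1.52% in these settings, against 3.88% as deposited. At 1.5-fold 4 members were higher and 1 was lower (0 at 2-fold), against 9.86% and 8.84% of all genes. The median change of the members, 0.34, became 0.047 at equal totals, 0.024 with the acinar genes also removed and 0.50 when the minimum mean FPKM was 10, which left 8 members. Equal totals lower every Postn-DTR value by construction. Slc40a1 and Steap4 turned to -0.10 and -0.13 at equal totals and to -0.12 and -0.15 with the acinar genes removed. With 1 added to each FPKM, the ratio of Trf to Tfrc, 257.4 in WT and 326.5 in Postn-DTR, became 226.0 and 262.2, since Tfrc is low. Pseudocounts of 0.1 and 5, centring, the 75th percentile and no filter left the count at 3, with shares over all genes between 2.16% and 4.89%. Among all genes, higher genes were 55.4% of those past 2-fold as deposited, 30.5% at equal totals and 29.0% with the acinar genes removed. Of 60 single values of members under alternatives, 4 changed sign, all named above. None of the 5 ferritin copies is listed, so adding copies could not alter the ratio of Fth1 to Ftl1 and says nothing of its stability. Of the 80 pathway genes compared, 13 were at least 2-fold higher and 1 lower, against 3.88% and 3.12% of all genes. At equal totals these counts were 10 and 3, against 2.35% and 5.36% of all genes.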
